A study of Brassica juncea with 18 samples.

Results

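Late control siliques of Indian mustard (Brassica juncea var. Varuna) were compared with early ones. DAP stands for days after pollination. Late siliques were those of 20, 25 and 30 DAP, and early siliques those of 5, 10 and 15 DAP. These 6 libraries, 3 late and 3 early, are the untreated members of a series of 18 libraries. The other 12 came from siliques of the same stages kept in the cold for 6 h or 12 h, with 6 libraries of each duration. A silique is the pod of the mustard family, and the whole organ was sequenced, with pod wall, seed coat, endosperm and embryo together. Control siliques stayed on cut branches standing in water in the field, and the flowers had been selfed by hand. By the study's sections of ovules, the embryo was heart-shaped at 20 DAP, torpedo-shaped at 25 DAP and cotyledonary at 30 DAP, whereas the early stages ran from the first division of the zygote at 5 DAP to the globular embryo at 15 DAP. The split into early and late came from the study's own clustering of all 18 libraries. Each stage had 1 library, so the 3 stages of a phase serve as its replicates, and p-values measure only the spread between these single libraries.

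Seed filling in the mustard family follows embryo patterning. The transcription factors LEAFY COTYLEDON 1 (LEC1), LEC2 and FUSCA 3 (FUS3) start the maturation programme in Arabidopsis, and WRINKLED 1 (WRI1) turns on the plastid enzymes of fatty acid synthesis. Embryos then lay down napins and cruciferins, the 2S and 11S storage proteins, and triacylglycerol in oil bodies coated with oleosins. Around them the inner seed coat makes proanthocyanidins, and the pod wall builds lignified layers and vascular tissue with thick secondary walls.

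Values are TMM-normalized FPKM (fragments counted relative to transcript length and library size) of 13342 assembled transcripts from 9446 unigenes, which are the transcripts that the study had called between some pair of its 18 libraries. A difference is the late mean minus the early mean of log2(FPKM + 1), which understates changes of low transcripts, and a transcript is called higher or lower at an adjusted p under 0.05 from limma fitted over all 13342 transcripts. Where 3 values are given for a phase they are in the order of its stages. Low values fell on whole multiples of 1 fragment. For transcripts of at least 500 and under 600 bp, 1 fragment was worth 0.0522, 0.0916 and 0.0743 FPKM at 20, 25 and 30 DAP, and 0.0647, 0.0734 and 0.0699 FPKM at 5, 10 and 15 DAP. The 20 DAP library was thus 1.76 times as deep as the 25 DAP library, the shallowest. A value of 0 there allows up to 3 fragments, or 0.157 to 0.275 FPKM over the 6 libraries, for counting error only. Pearson correlations of log2(FPKM + 1) between libraries were 0.742 to 0.929 within late stages, 0.687 to 0.918 within early stages and 0.474 to 0.851 between late and early stages. The 25 and 30 DAP libraries had lost a larger share of reads to quality filtering than the other 4, and a fit with this as a term stands beside the calls.

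Of the 13342 transcripts, 535 (4.01%) from 409 unigenes were higher and 80 (0.6%) from 76 unigenes were lower in late siliques. The transcripts called higher had a median log2 difference of 2.18 (0.92 to 7.44), and 265 of them averaged under 1 FPKM in early siliques. Those called lower had a median of -2.05, and 61 of the 80 averaged under 1 FPKM in late siliques. Without a test, 2971 transcripts (22.3%) had all 3 late values above all early ones and 1780 (13.3%) had them below, and the median difference of all transcripts was 0.06. Rescaling the libraries by median ratios moved that median by -0.11, with 328 higher and 86 lower calls, and the share of calls that were higher was then 79.2% against 87.0% as deposited. The calls rest on few libraries. Without the 5, 10 or 25 DAP library no transcript passed (limma, smallest adjusted p 0.0601, 0.0651 and 0.0841), although 1757, 1582 and 1813 were higher and 1204, 625 and 744 lower at an unadjusted p under 0.05. Without the 15, 20 or 30 DAP library 220, 209 and 318 were called higher and 56, 13 and 28 lower. With the class of reads kept as a term, 20 DAP was left as the single late library in the class of the early ones. None of the calls held in that fit, which compares 20 DAP alone with the early libraries. All 615 called transcripts had every late value on one side of every early one, so their direction could not change there.

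**Figure D1:**
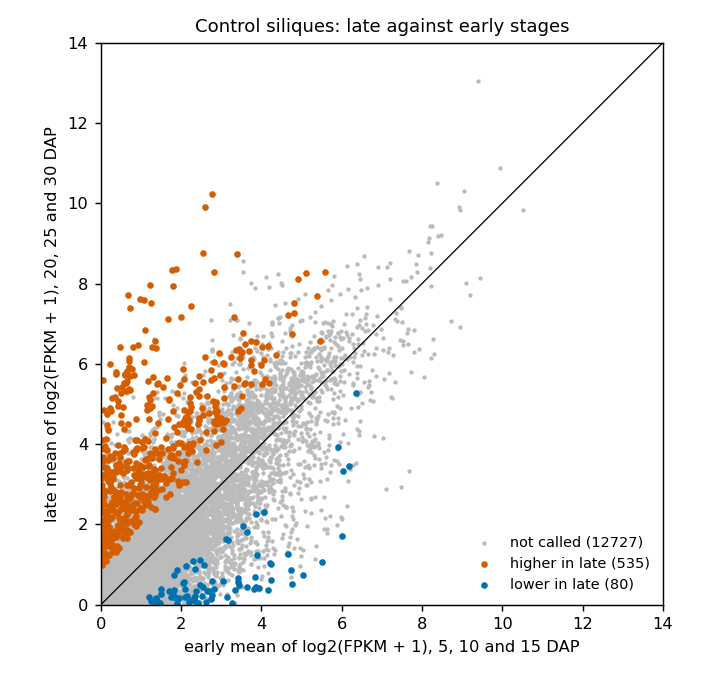
Late mean (vertical axis, 20, 25 and 30 DAP) against early mean (horizontal axis, 5, 10 and 15 DAP) of log2(FPKM + 1) in control siliques, 1 point per transcript, with the line of equal means. Orange points are the 535 transcripts called higher and blue points the 80 called lower in late siliques. Many of the orange points lie at the left edge, where early values are near 0.

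Several embryo regulators were higher in late siliques, already at 20 DAP. Of 16 transcripts (10 unigenes) named as embryo and seed regulators, 9 were called higher and 0 lower, beside 4.01% and 0.6% of all transcripts. Their median log2 difference was 1.41, against 0.06 for all transcripts. Of the 16, 13 made their largest step between 15 and 20 DAP, beside 24.7% of all transcripts with a difference above 0. Summed over the list, FPKM was 147, 182 and 350 at 20, 25 and 30 DAP and 10.8, 9.88 and 11.7 at 5, 10 and 15 DAP. Whether more embryo cells or more RNA per cell lay behind a value cannot be told apart in whole siliques, here or in any later comparison.

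LEC1-1 (c66162_g1_i1), a subunit of the CCAAT-binding complex that starts embryo maturation in Arabidopsis, stood at 49, 55.2 and 128 FPKM in late siliques, against 0.23, 0.57 and 1.25 FPKM in early siliques. It was near 0 or 1 FPKM in every early library and many times higher in every late one (log2 difference 5.45 ± 0.45 SE, limma adjusted p = 0.0194). Its close relative NF-YB6 (c9740_g1_i1), known in Arabidopsis as LEC1-LIKE and not in the list by name, had 4.96, 5.26 and 18.6 FPKM in late siliques, against 0.1, 0.56 and 0.11 FPKM in early siliques, again without overlap (log2 difference 2.86 ± 0.52 SE, limma adjusted p = 0.0473). WRI1 (c70900_g1_i4), the activator of fatty acid synthesis genes, had 21.9, 32.6 and 51.4 FPKM in late siliques, against 2.52, 1.94 and 2.29 FPKM in early siliques. Unlike LEC1-1 it was already measurable in early siliques, with a late mean of 35.3 ± 15 FPKM against an early mean of 2.25 ± 0.29 FPKM (SD, n = 3 each), and its late values lay above all early ones (log2 difference 3.4 ± 0.33 SE, limma adjusted p = 0.0209). A second WRI1 unigene (c45707_g1_i1) did not pass (log2 difference 1.41 ± 0.38 SE, limma adjusted p = 0.0922).

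FUS3 (c56837_g2_i1), a B3 factor of embryo maturation, had 1.98, 3.20 and 3.63 FPKM at 20, 25 and 30 DAP and was listed at 0 in all early libraries (log2 difference 1.95 ± 0.22 SE, limma adjusted p = 0.0229). LEC2 (c67224_g1_i1), a B3 factor of the same network, had 3.69, 3.79 and 2.73 FPKM in late siliques, against 0.05, 0 and 0.57 FPKM in early siliques. Its late values were all above its early ones and were lowest at 30 DAP (log2 difference 1.89 ± 0.25 SE, limma adjusted p = 0.0263). MYB118 (c53500_g1_i1), which is outside the list and acts in the maturing endosperm in Arabidopsis, had 6.97, 14.3 and 13.3 FPKM in late siliques, against 0.02, 0.02 and 0.07 FPKM in early siliques, with no overlap (log2 difference 3.54 ± 0.29 SE, limma adjusted p = 0.0194). AGL15 (c51546_g1_i1), a MADS factor of the embryo, had all late values above the early ones and did not pass (log2 difference 1.38 ± 0.31 SE, limma adjusted p = 0.0663).

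The storage products followed another course. Of 11 storage protein transcripts 1 was called higher, and 0 of 20 oil body transcripts were, beside 4.01% of all transcripts. The median log2 difference was nonetheless 1.44 in each list. The largest step was that from 25 to 30 DAP in 8 of the 11 and in 16 of the 20, beside 34.3% of all transcripts with a difference above 0. Summed FPKM of the storage proteins was 11.8, 21.3 and 1096 at 20, 25 and 30 DAP and 0.41, 5.38 and 0.90 at 5, 10 and 15 DAP. For oil body proteins the sums were 14.9, 39.0 and 311 FPKM in late and 2.50, 5.1 and 5.41 FPKM in early siliques. The 30 DAP library thus held most of the late sum in both lists, and the late libraries spread widely. Without the 30 DAP library the median differences were 0.23 for storage and 0.52 for oil body proteins.

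Napin-B (c62438_g1_i2) had 0.11, 0.46 and 606 FPKM in late siliques, against 0, 2.42 and 0.1 FPKM in early siliques. Only the 30 DAP library held it at a high level, and at 20 DAP it lay below the 10 DAP library, so the groups overlapped (log2 difference 2.68 ± 2.58 SE, limma adjusted p = 0.526). Without the 30 DAP library its log2 difference was -0.29. The other isoform of that unigene, also a napin (c62438_g1_i1), had 1.91, 5.47 and 422 FPKM in late siliques, against 0.05, 2.28 and 0.05 FPKM in early siliques (log2 difference 3.7 ± 1.96 SE, limma adjusted p = 0.297). The storage protein that passed was another napin (c42453_g1_i1), at 6.48, 10.7 and 13.5 FPKM in late siliques, against 0, 0.1 and 0.09 FPKM in early siliques, present at every late stage (log2 difference 3.35 ± 0.28 SE, limma adjusted p = 0.0194). Cruciferin CRU1 (c66547_g1_i1) had 1.58, 1.81 and 5.01 FPKM in late siliques, against 0, 0.07 and 0.07 FPKM in early siliques. Its groups did not overlap, and it did not pass (log2 difference 1.75 ± 0.36 SE, limma adjusted p = 0.0603).

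Oleosin S3-2 (c66737_g4_i1) had 2.74, 6.46 and 66.3 FPKM in late siliques, against 0.41, 0.62 and 0.31 FPKM in early siliques. Oleosin S3-4 (c74884_g1_i1) had 1.15, 5.72 and 27.4 FPKM in late siliques, against 0, 0.28 and 0 FPKM in early siliques. Both had a higher value at each late stage than at the one before and were far higher at 30 DAP than at 25 DAP, with no overlap between phases, and neither passed (limma adjusted p = 0.155 and 0.145). Caleosin CLO1-5 (c61253_g1_i2), a calcium-binding oil body protein, had 0.62, 2.76 and 5.3 FPKM in late siliques, against 0, 0.03 and 0.03 FPKM in early siliques (log2 difference 1.73 ± 0.51 SE, limma adjusted p = 0.111). FAE1.1 (c66554_g1_i1), the elongase that makes erucic acid, was listed at 47.2 FPKM at 30 DAP and at most 0.19 FPKM in the other 5 libraries. All 6 transcripts of plastid fatty acid synthesis made their largest step from 25 to 30 DAP, and 0 of them were called. One of these, the biotin-containing subunit of acetyl-CoA carboxylase (c60381_g1_i3), had 7.11, 9.33 and 43.9 FPKM in late siliques, against 9.35, 7.88 and 6.21 FPKM in early siliques (log2 difference 0.83 ± 0.69 SE, limma adjusted p = 0.469).

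**Figure D2:**
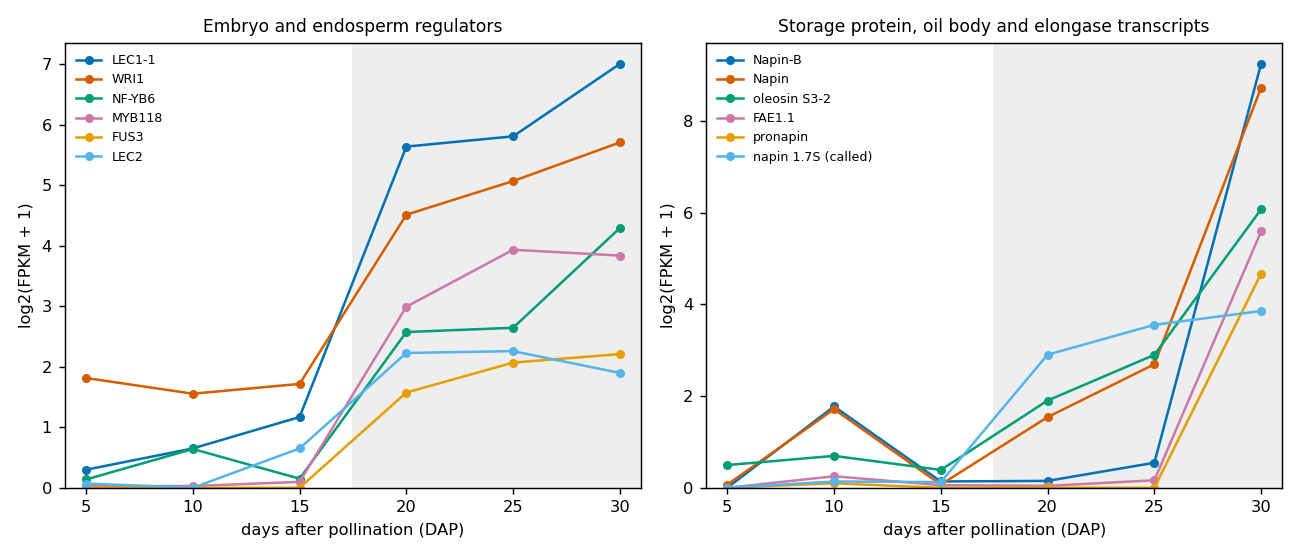
Expression, as log2(FPKM + 1), by days after pollination in the 6 control libraries, 1 library per point, with late stages on the grey ground. The 6 regulators (left) were all higher at 20 DAP than at any early stage, whereas the napins, oleosin and FAE1.1 (right) were highest at 30 DAP, and the called napin 1.7S stood at 6.48 FPKM at 20 DAP.

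Transcripts named only as seed-specific proteins, of unknown role, had the largest differences. Bn15D80B (c50548_g3_i1) had 545, 990.0 and 3133 FPKM in late siliques, against 1.75, 11.1 and 8.68 FPKM in early siliques, the largest difference of any called transcript (log2 difference 7.44 ± 0.86 SE, limma adjusted p = 0.0229). A second unigene with that best hit (c50548_g2_i1) followed it closely (log2 difference 7.32 ± 0.80 SE, limma adjusted p = 0.0227), and near-identical copies may share reads. Bn15D33A (c143325_g1_i1) had 145, 183 and 572 FPKM in late siliques, against 0.73, 2.16 and 1.36 FPKM in early siliques (log2 difference 6.73 ± 0.58 SE, limma adjusted p = 0.0194). Its late values exceeded every early value many times over. BnENODL4 (c73075_g3_i2), an early nodulin-like protein, had 74.3, 156 and 642 FPKM in late siliques, against 0.54, 2.68 and 0.35 FPKM in early siliques (log2 difference 6.64 ± 0.88 SE, limma adjusted p = 0.0265). An HXXXD-type acyltransferase (c57355_g1_i1), from a family that acylates many secondary products, had 10.1, 12 and 13.9 FPKM in late siliques, against 0.07, 0.03 and 0 FPKM in early siliques (log2 difference 3.64 ± 0.18 SE, limma adjusted p = 0.0194). Delta-VPE (c62570_g1_i1), a vacuolar protease of the inner seed coat in Arabidopsis, had 24.3, 52.9 and 67.8 FPKM in late siliques, against 0.59, 1.33 and 3.94 FPKM in early siliques (log2 difference 4.11 ± 0.57 SE, limma adjusted p = 0.0294). Alpha-VPE (c64073_g1_i1), of the same protease family, had 207 FPKM at 30 DAP and did not pass (log2 difference 2.79 ± 1.31 SE, limma adjusted p = 0.254).

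A share of the secondary wall transcripts was called higher in late siliques. Most of those named had levels at 20 DAP close to those of 25 and 30 DAP. The stages of a phase served as replicates, so a call favours transcripts that are level within each phase. Of all 535 transcripts called higher, 528 made their largest step between 15 and 20 DAP. Of 62 transcripts (42 unigenes) of lignin and secondary wall formation, 22 (35.5%) were called higher and 0 lower, beside 4.01% and 0.6% of all transcripts. Their median log2 difference was 1.43, and 36 made their largest step between 15 and 20 DAP. Of all transcripts, 24.7% of those with a difference above 0 and 23.5% of those below 0 did. Summed over the 62, FPKM was not level in late siliques, with 1334, 1562 and 2035 at 20, 25 and 30 DAP. Cellulose synthases gave 11 of these 22 calls, and among the 44 other transcripts of the list 11 were called higher, with a median of 1.32. Cellulose synthases were divided into isoforms 4, 7 and 8, which in Arabidopsis build secondary walls, and all others. The others include primary wall isoforms and transcripts named only as a catalytic subunit-like protein or an isolog. All 11 transcripts (6 unigenes) of isoforms 4, 7 and 8 were called higher and 0 of the 8 other cellulose synthases were. The 8 others nonetheless all had differences above 0, with a median of 0.99. Of these, 6 had every late value above every early one, beside 22.3% of all transcripts. This division was made after the values were seen, and the difference between the 2 sets was not tested. Summed over the 11, FPKM was 549, 578 and 532 in late and 50.8, 99.9 and 46.6 in early siliques, in stage order.

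Cellulose synthase 4.1 (c66717_g1_i1) had 111, 120.1 and 96.2 FPKM in late siliques, against 8.75, 18.9 and 6.96 FPKM in early siliques. Cellulose synthase 8.2 (c72428_g3_i1) had 91.6, 96.4 and 80.7 FPKM in late siliques, against 9.88, 15.7 and 8.63 FPKM in early siliques. Cellulose synthase 7.1 (c72428_g2_i3) had 36.6, 40.5 and 38.3 FPKM in late siliques, against 3.43, 6.15 and 3.28 FPKM in early siliques. In each case the 3 late values were close to one another and above all early ones, with log2 differences of 3.25 ± 0.38, 2.91 ± 0.26 and 2.94 ± 0.25 (SE, limma adjusted p = 0.0229, 0.0194 and 0.0194). Cellulose synthase 5.1 (c70188_g2_i1), a primary wall isoform, instead had 18.1, 44.9 and 101 FPKM in late siliques, against 11, 15.1 and 12.5 FPKM in early siliques. Its value was higher at each late stage than at the one before (log2 difference 1.7 ± 0.62 SE, limma adjusted p = 0.165). COBRA-like 4 (c28442_g1_i2), needed for secondary wall cellulose in Arabidopsis, had 16, 19.9 and 19.4 FPKM in late siliques, against 1.84, 2.79 and 0.53 FPKM in early siliques (log2 difference 2.93 ± 0.37 SE, limma adjusted p = 0.0241).

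Laccase-4 (c69291_g2_i1), which polymerises lignin, had 20.9, 26.5 and 19.6 FPKM in late siliques, against 4.54, 8.06 and 5.98 FPKM in early siliques. The transcript with the best hit IRX12/LAC4 (c70753_g1_i4), outside the list by name, had 24.2, 24.2 and 19.8 FPKM in late siliques, against 7.02, 8.43 and 6.73 FPKM in early siliques. Both were roughly level within each phase and higher in every late library, by 1.71 ± 0.25 and 1.5 ± 0.18 on the log2 scale (SE, limma adjusted p = 0.0316 and 0.0229). The regulators NST1 (c68506_g1_i2), a NAC master switch of fibre walls, and MYB103 (c67210_g1_i2), counted with the MYB factors and acting below it in Arabidopsis, were low and higher in late siliques too. NST1 had 3.85, 3.72 and 4.8 FPKM in late siliques, against 0.44, 0.85 and 0.95 FPKM in early siliques (log2 difference 1.56 ± 0.20 SE, limma adjusted p = 0.0251). MYB103 had 5.17, 5.53 and 3.79 FPKM in late siliques, against 0.61, 1.17 and 0.86 FPKM in early siliques (log2 difference 1.63 ± 0.21 SE, limma adjusted p = 0.0263). Neither overlapped between phases. Of 63 NAC transcripts 7 (11.1%) were called higher and 0 lower, beside 4.01% and 0.6% of all transcripts. Of 189 MYB transcripts 10 were called higher, a share near that of all transcripts. Peroxidase 57 (c64839_g1_i1), also outside the list and of the family that oxidises cell wall phenolics, had 4.47, 6.85 and 7.54 FPKM in late siliques, against 0.08, 0.12 and 0.08 FPKM in early siliques (log2 difference 2.71 ± 0.22 SE, limma adjusted p = 0.0194).

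Some flavonoid transcripts were called higher in late siliques, and several had increasing values over the early stages. Of 29 flavonoid and proanthocyanidin transcripts (21 unigenes), 10 (34.5%) were called higher and 0 lower, beside 4.01% and 0.6% of all transcripts. Their median log2 difference was 2.04. Of the 29, 17 made their largest step between 15 and 20 DAP, beside 24.7% of all transcripts with a difference above 0. Summed FPKM was 939, 1298 and 1070 at 20, 25 and 30 DAP and 128, 220 and 371 at 5, 10 and 15 DAP. PAL4 (c69175_g1_i1), phenylalanine ammonia-lyase at the entry to the phenylpropanoid pathway and counted in the secondary wall list, had 158, 172 and 312 FPKM in late siliques, against 28.7, 48.1 and 49.2 FPKM in early siliques (log2 difference 2.29 ± 0.37 SE, limma adjusted p = 0.0373). Chalcone synthase 3 (c72043_g1_i5), the first flavonoid enzyme, had 69.1, 92.4 and 74.1 FPKM in late siliques, against 7.52, 8.41 and 17.6 FPKM in early siliques (log2 difference 2.79 ± 0.35 SE, limma adjusted p = 0.0242). Early values were thus below every late value for both enzymes, and for chalcone synthase 25 DAP was the highest stage.

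Flavonoid 3'-hydroxylase (c65541_g1_i2), which adds a hydroxyl to the B ring, had 70.9, 93.9 and 73.5 FPKM in late siliques, against 6.36, 11.8 and 21.3 FPKM in early siliques (log2 difference 2.64 ± 0.43 SE, limma adjusted p = 0.0401). Flavanone 3-hydroxylase 1 (c57732_g1_i1) passed at lower levels (log2 difference 1.49 ± 0.22 SE, limma adjusted p = 0.0323). Dihydroflavonol 4-reductase (c63806_g1_i1), the next enzyme, had 87.4, 137 and 105 FPKM in late siliques, against 10.4, 27 and 42.3 FPKM in early siliques. Its early values were higher at each stage than at the one before, and with every late value above them it did not pass (log2 difference 2.19 ± 0.53 SE, limma adjusted p = 0.079). Anthocyanidin synthase 1 (c69599_g1_i1) likewise had 85.1, 121 and 79.7 FPKM in late siliques, against 12.6, 24.5 and 34.3 FPKM in early siliques (log2 difference 2.04 ± 0.41 SE, limma adjusted p = 0.0556). The laccase TT10a (c62649_g1_i1), which browns the seed coat by oxidising proanthocyanidins and was counted with the laccases of the wall list, had 111, 160.5 and 141 FPKM in late siliques, against 1.73, 5.77 and 42.9 FPKM in early siliques, with most of its early signal at 15 DAP (log2 difference 3.88 ± 1.02 SE, limma adjusted p = 0.0914). A transcript named for TT2 (c59363_g1_i1), the MYB that switches on this branch, peaked at 25 DAP with 38.4 FPKM and had 8.98 FPKM at 30 DAP, within the range of early siliques (log2 difference 0.95 ± 0.84 SE, limma adjusted p = 0.496).

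**Figure D3:**
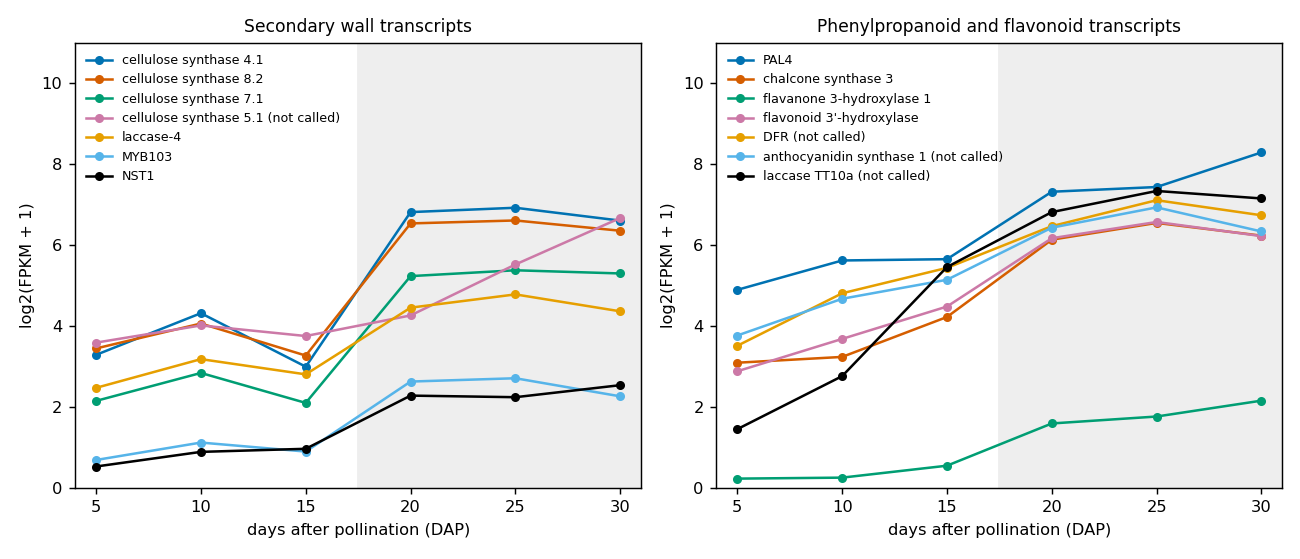
Expression, as log2(FPKM + 1), by days after pollination in the 6 control libraries, 1 library per point, with late stages on the grey ground. Left, the plotted secondary wall transcripts that were called step up at 20 DAP and then stay roughly level. Cellulose synthase 5.1, not called, is highest at 30 DAP. Right, the phenylpropanoid and flavonoid transcripts, all of them, called or not, higher at 15 DAP than at 5 DAP.

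Endosperm factors did not move together. Of 7 transcripts in the list of endosperm markers 1 was called higher and 0 lower, beside 4.01% and 0.6% of all transcripts. RETARDED GROWTH OF EMBRYO 1 (RGE1, c58910_g1_i1), an endosperm factor that shapes embryo growth in Arabidopsis, had 1.09, 2.01 and 2.55 FPKM in late siliques, against 0.04, 0.13 and 0.17 FPKM in early siliques (log2 difference 1.34 ± 0.24 SE, limma adjusted p = 0.0473). AGL80 (c8103_g1_i1), a MADS factor of the central cell from which the endosperm grows and outside that list, ran the other way with 0.16, 0 and 0.03 FPKM in late siliques, against 1.24, 1.54 and 2.26 FPKM in early siliques (log2 difference -1.32 ± 0.21 SE, limma adjusted p = 0.036). The AGL62-like transcript (c70411_g1_i6), named for the MADS factor that delays endosperm cellularization in Arabidopsis, had 0.15, 0.16 and 0 FPKM in late siliques, against 1.26, 3.75 and 5.31 FPKM in early siliques. It was highest at 15 DAP and near 0 at every late stage, and it did not pass (log2 difference -1.89 ± 0.41 SE, limma adjusted p = 0.0635). FIE (c67588_g2_i1), a Polycomb subunit, had 67.5, 91.2 and 80.9 FPKM in late siliques, against 1, 6.37 and 20.1 FPKM in early siliques. Its value was higher at each early stage than at the one before, and it did not pass (log2 difference 3.57 ± 0.86 SE, limma adjusted p = 0.0781). Among all 42 MADS box transcripts 0 were called higher and 1 lower, with a median log2 difference of -0.54, and 14 had every late value below every early one, beside 13.3% of all transcripts. AGL1 (c45593_g1_i1), known as SHATTERPROOF 1 in Arabidopsis, where it patterns the valve margin at which the pod opens, was among the 4 with every late value above every early one (22.3% of all transcripts) and did not pass (log2 difference 1.41 ± 0.30 SE, limma adjusted p = 0.0616).

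Several transcripts called lower in late siliques coded for wall enzymes. Of 40 expansin and xyloglucan enzyme transcripts 2 (5%) were called lower and 2 (5%) higher, beside 0.6% and 4.01% of all transcripts. The median log2 difference of this list was -0.31, and it was -0.76 without the 25 DAP library and -0.22 without the 30 DAP library. Alpha-expansin 3 (c61953_g1_i2), a wall-loosening protein of growing cells, had 0.43, 0.46 and 0 FPKM in late siliques, against 7.31, 3.71 and 5.38 FPKM in early siliques (log2 difference -2.3 ± 0.29 SE, limma adjusted p = 0.0242). Beta-expansin 2 (c60146_g1_i1) had 0.2, 0.09 and 0.91 FPKM in late siliques, against 4.58, 4.03 and 5.98 FPKM in early siliques (log2 difference -2.1 ± 0.28 SE, limma adjusted p = 0.0274). Every late value of both was below 1 FPKM and every early value above 3 FPKM. In the other direction, beta-expansin-like 1 (c65184_g1_i2) had 15.5, 18.9 and 23.4 FPKM in late siliques, against 6.23, 5.13 and 6.83 FPKM in early siliques (log2 difference 1.51 ± 0.22 SE, limma adjusted p = 0.0313). Expansin-A22 (c52534_g1_i1) was highest at 15 DAP, at 53.0 FPKM, and did not pass (log2 difference -3.31 ± 0.94 SE, limma adjusted p = 0.104).

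Transcripts of 3 unigenes named beta-xylosidase 3, an enzyme that trims wall xylan, were lower together, and near-identical copies may share reads. The first (c60609_g2_i1) had 0.07, 0 and 0 FPKM in late siliques, against 3.4, 4.23 and 5.65 FPKM in early siliques (log2 difference -2.39 ± 0.21 SE, limma adjusted p = 0.0194). The others (c60609_g3_i1 and c39639_g1_i1) had log2 differences of -2.12 ± 0.24 and -2.15 ± 0.26 (SE, limma adjusted p = 0.0229 for each). QRT2 (c66606_g2_i1), a polygalacturonase of cell separation, had 0.11, 0.16 and 0.1 FPKM in late siliques, against 2.23, 3.57 and 2.8 FPKM in early siliques (log2 difference -1.77 ± 0.19 SE, limma adjusted p = 0.0227). A glycoside hydrolase of family 28 (c129124_g1_i1), to which polygalacturonases belong, had 0.58, 0.54 and 0 FPKM in late siliques, against 7.52, 14.3 and 26.8 FPKM in early siliques (log2 difference -3.51 ± 0.48 SE, limma adjusted p = 0.0278). All of these were at or near 0 in late control siliques, where a value under about 0.2 FPKM is a few fragments. The 20 DAP library of 12 h cold differed. There c129124_g1_i1 had 66.5 FPKM, and c60609_g2_i1, c60609_g3_i1 and c39639_g1_i1 had 8.72, 9.21 and 8.38 FPKM. Each was above its early values at 12 h. Alpha-expansin 3 and beta-expansin 2 had 0.88 and 0.44 FPKM in that library, below theirs. Of 124 pectin enzyme transcripts, 6 were called higher, a share near that of all transcripts, and 1 lower, and pectinesterase 35 (c72365_g2_i1) was among the higher with 14.5, 12.2 and 20.6 FPKM in late siliques, against 2.2, 4.07 and 2.3 FPKM in early siliques (log2 difference 2.12 ± 0.29 SE, limma adjusted p = 0.029).

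Small cysteine-rich peptides, which serve in defence and in signalling between cells, changed in both directions. Of 81 such transcripts (64 unigenes), in a list made after the values were seen, 8 (9.88%) were called lower and 6 (7.41%) higher, beside 0.6% and 4.01% of all transcripts. LCR37 (c58684_g1_i1) had 1.47, 0.85 and 0 FPKM in late siliques, against 20.9, 49 and 30.6 FPKM in early siliques (log2 difference -4.29 ± 0.46 SE, limma adjusted p = 0.0227). Defensin-like protein 298 (c56237_g1_i1) had 2.51, 1.33 and 0.08 FPKM in late siliques, against 9.64, 19.6 and 28 FPKM in early siliques (log2 difference -3.16 ± 0.58 SE, limma adjusted p = 0.0473). LCR23 (c50326_g1_i1) went the other way, with 24.3, 73.7 and 91 FPKM in late siliques, against 0.23, 0.17 and 0.49 FPKM in early siliques (log2 difference 5.44 ± 0.52 SE, limma adjusted p = 0.0199). Within the thionin family 1 unigene (c61542_g2_i1) was lower, with 0.3, 0.18 and 0 FPKM in late siliques, against 6.18, 9.92 and 7.74 FPKM in early siliques (log2 difference -2.93 ± 0.23 SE, limma adjusted p = 0.0194). Another (c61542_g1_i2) was higher, with 169, 328 and 127 FPKM in late siliques, against 0.3, 0.63 and 3.51 FPKM in early siliques (log2 difference 6.51 ± 0.60 SE, limma adjusted p = 0.0194). RALF-like 13 (c89572_g1_i1), of a family of peptide signals that alkalinise the wall space, was lower (log2 difference -2.17 ± 0.25 SE, limma adjusted p = 0.0229).

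**Figure D4:**
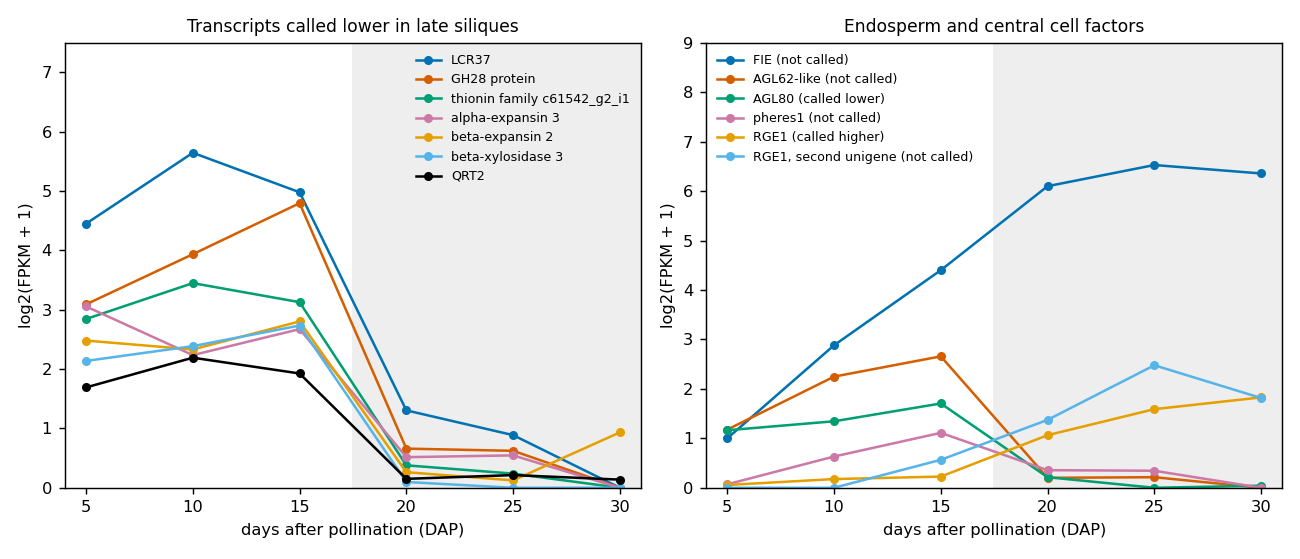
Expression, as log2(FPKM + 1), by days after pollination in the 6 control libraries, 1 library per point, with late stages on the grey ground. Left, 7 transcripts called lower, each at or below 1.47 FPKM at every late stage. Right, endosperm and central cell factors, of which AGL62-like, AGL80 and pheres1 peak at 15 DAP while FIE and RGE1 are higher later.

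Metabolic and defence transcripts were also among those lower in late siliques, but the defence lists went both ways. Of 48 glucosinolate and myrosinase transcripts 2 (4.17%) were called higher and 1 (2.08%) lower. Of 88 protease inhibitors and defence proteins 4 (4.55%) were called higher and 4 lower, with a median log2 difference of 0.39. The shares of all transcripts were 4.01% higher and 0.6% lower. A jasmonate inducible protein (c64755_g1_i4) had 13.9, 18.9 and 10.8 FPKM in late siliques, against 59.9, 76.8 and 45.7 FPKM in early siliques (log2 difference -1.99 ± 0.30 SE, limma adjusted p = 0.0324). A myrosinase binding protein (c579_g1_i1), part of the mustard defence complex around glucosinolate breakdown, had 2.37, 1.74 and 0.4 FPKM in late siliques, against 16.6, 17.8 and 8.72 FPKM in early siliques (log2 difference -2.65 ± 0.44 SE, limma adjusted p = 0.0408). An aspartyl protease (c64454_g1_i2) had a lower value at each stage than at the one before, with 14.8, 9.78 and 5.14 FPKM in late siliques, against 102, 56.7 and 45.7 FPKM in early siliques (log2 difference -2.68 ± 0.47 SE, limma adjusted p = 0.0443). The first enzyme of the plastid isoprenoid pathway, 1-deoxyxylulose-5-phosphate synthase (c48385_g2_i1), had 0.89, 0.88 and 1.06 FPKM in late siliques, against 3.5, 3.47 and 3.08 FPKM in early siliques. Its values were nearly level within each phase (log2 difference -1.16 ± 0.15 SE, limma adjusted p = 0.0265).

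Most hormone transcripts were not called. In the gibberellin list 6 of 33 transcripts (18.2%) were called higher and 1 (3.03%) lower, beside 4.01% and 0.6% of all transcripts. The list did not move one way, with a median log2 difference of -0.55 and 22 of 33 differences below 0. In the abscisic acid list 2 of 30 (6.67%) were higher and 0 lower. The auxin list had 2 of 69 (2.9%) higher and 0 lower, the ethylene list 1 of 65 (1.54%) higher and 0 lower, and the jasmonate list 1 higher and 1 lower of 38, whereas 0 of 22 cytokinin transcripts were called. Gibberellin 20-oxidase 4 (c66552_g1_i6), a late enzyme of gibberellin synthesis, had 21.6, 31.4 and 97.2 FPKM in late siliques, against 0.13, 0.55 and 1.52 FPKM in early siliques (log2 difference 4.66 ± 0.63 SE, limma adjusted p = 0.0274). Ent-kaurenoic acid oxidase 1 (c58200_g1_i1), an earlier enzyme of that pathway and outside the list by name, had 5.93, 11.5 and 15.1 FPKM in late siliques, against 0.62, 1.05 and 1.32 FPKM in early siliques (log2 difference 2.5 ± 0.36 SE, limma adjusted p = 0.0313). Both were higher at each late stage than at the one before and did not overlap with early siliques. The gibberellin-regulated peptides split. The transcript c73374_g1_i1 had 174, 284 and 102 FPKM in late siliques, against 1.91, 1.62 and 13 FPKM in early siliques. By contrast c16507_g1_i1 had 0.1, 0 and 0 FPKM in late siliques, against 10.6, 6.78 and 8.7 FPKM in early siliques. Their log2 differences were 5.19 ± 0.77 and -3.21 ± 0.21 (SE, limma adjusted p = 0.0328 and 0.0194).

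A 9-cis-epoxycarotenoid dioxygenase (c129202_g1_i1), the committed enzyme of abscisic acid synthesis, had 9.56, 20.5 and 13.1 FPKM in late siliques, against 0.27, 0.39 and 2.47 FPKM in early siliques (log2 difference 3.01 ± 0.49 SE, limma adjusted p = 0.0398). JAR1 (c70440_g1_i1), which joins jasmonate to isoleucine, had 35.7, 33.3 and 34.1 FPKM in late siliques, against 5.84, 6.38 and 10.5 FPKM in early siliques (log2 difference 2.08 ± 0.25 SE, limma adjusted p = 0.0229). Its 3 late values were within 3 FPKM of one another. YUCCA10 (c66587_g1_i4), an auxin synthesis enzyme of the seed in Arabidopsis, was low, at 1.09, 1.09 and 0.77 FPKM in late siliques, against 0, 0 and 0.08 FPKM in early siliques (log2 difference 0.95 ± 0.16 SE, limma adjusted p = 0.0434). CYP78A9 (c64558_g1_i3) and CYP78A6 (c56941_g1_i1), cytochromes P450 that promote seed and fruit growth in Arabidopsis, were higher in every late library. CYP78A9 had 13.4, 14 and 16.5 FPKM in late siliques, against 2.99, 3.44 and 3.78 FPKM in early siliques (log2 difference 1.83 ± 0.17 SE, limma adjusted p = 0.0197). CYP78A6 had 10.6, 11.9 and 14.3 FPKM in late siliques, against 1.42, 2.74 and 3.15 FPKM in early siliques (log2 difference 1.98 ± 0.27 SE, limma adjusted p = 0.0274).

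Few transcripts for the transport of nitrogen compounds were called. Of 76 amino acid, peptide and nitrate transport transcripts 3 were called higher and 0 lower, near the background of 4.01%, while the median log2 difference was 0.97 and 43 had every late value above every early one, beside 22.3% of all transcripts. A nodulin MtN21/EamA-like transporter (c68556_g1_i2), of the family whose members move amino acids out of cells in Arabidopsis, had 6.22, 11 and 13.1 FPKM in late siliques, against 0.93, 0.5 and 0.82 FPKM in early siliques (log2 difference 2.62 ± 0.30 SE, limma adjusted p = 0.0229). Amino acid permease 8 (c60743_g1_i1), an importer that loads the young Arabidopsis seed, was lower in every late library and just missed the threshold (log2 difference -1.52 ± 0.29 SE, limma adjusted p = 0.0525). SWEET7 (c63518_g3_i1), a sugar transporter, had 105, 161 and 129.8 FPKM in late siliques, against 8.76, 15.3 and 43.2 FPKM in early siliques and did not pass (log2 difference 2.78 ± 0.58 SE, limma adjusted p = 0.0615). Of 45 transcripts for sucrose cleavage and sugar transport 0 were called.

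**Figure D5:**
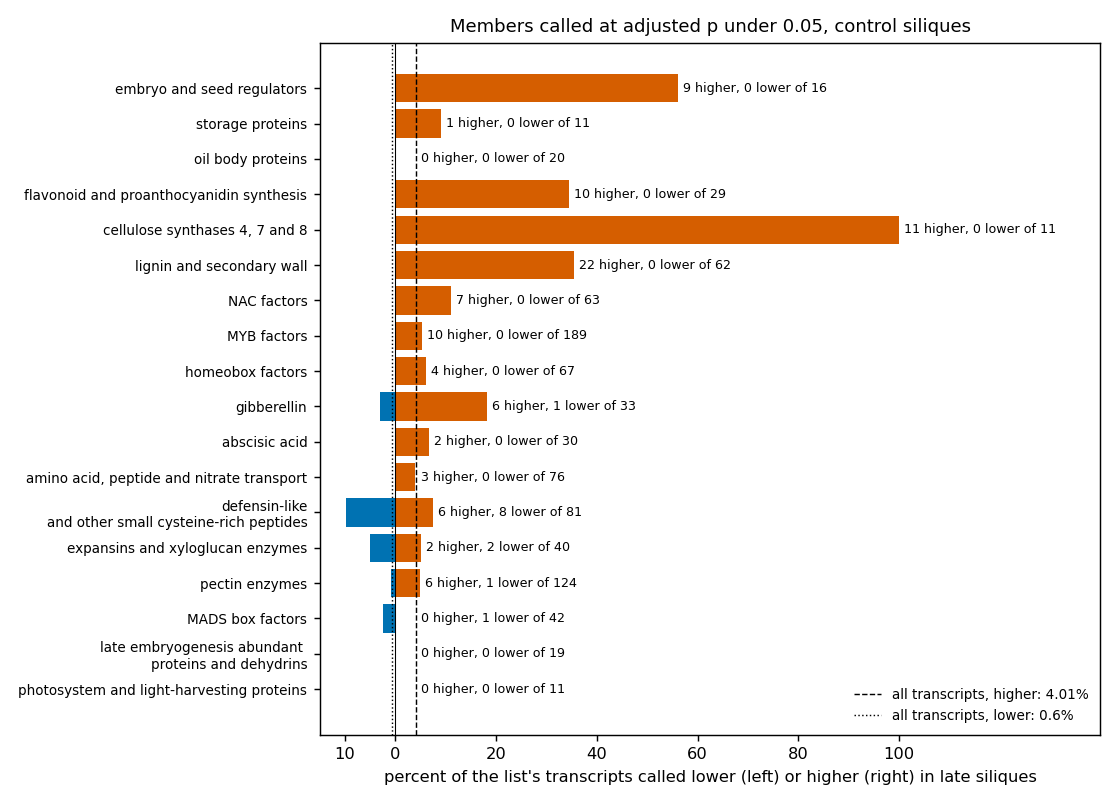
Percent of each list's transcripts called higher (orange, right) or lower (blue, left) in late control siliques, with the counts beside each bar and the shares of all 13342 transcripts as dashed (4.01% higher) and dotted (0.6% lower) lines. Cellulose synthases 4, 7 and 8, embryo regulators, lignin and secondary wall and flavonoid lists stand above the dashed line, and oil body, LEA and photosystem lists have no call.

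Late embryogenesis abundant (LEA) proteins, which protect drying seeds, showed no call in 19 transcripts, with a median log2 difference of -0.51, which was 0.0077 without the 5 DAP library. The highest dehydrin named here (c56112_g1_i1) had 95.3, 126 and 46.7 FPKM in late siliques, against 126, 106 and 219.7 FPKM in early siliques (log2 difference -0.78 ± 0.47 SE, limma adjusted p = 0.348), and a group I LEA transcript (c59625_g1_i1) was high only at 5 DAP, at 41.7 FPKM. Photosystem and light-harvesting transcripts showed no call in 11, with a median of 0.67 and summed FPKM of 129, 60.9 and 112 in late and 122, 153 and 93.0 in early siliques, so the sums overlapped. With transcripts of at least 1 FPKM on average alone, that median was -0.36. The most abundant transcript of late siliques, a senescence-specific cysteine protease (c65057_g1_i1), had 10269, 13855 and 4162 FPKM in late siliques, against 49.9, 1372 and 4406 FPKM in early siliques. The 15 DAP value lay above that of 30 DAP, and it did not pass (log2 difference 3.64 ± 1.71 SE, limma adjusted p = 0.253).

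Markers of tissues a whole silique could hold were checked beside these results. Embryo markers summed to 148 to 342 FPKM in late and 13.4 to 16 FPKM in early siliques, with 9 of 13 called higher, and 12 of the 13 are also in the regulator list. Endosperm markers summed to 71.0 to 98.7 FPKM in late and 2.88 to 31.5 FPKM in early siliques, and the late sums were mostly FIE. The sums therefore do not describe the list, whose median log2 difference was -0.37, with 3 of 7 differences above 0 and 4 below. The list of pollen and anther markers, 23 transcripts that were mostly isoforms of ABERRANT POLLEN DEVELOPMENT 1 and Ole e 1 proteins, summed to 79.9 to 221 FPKM in late and 27.1 to 119 FPKM in early siliques, with 1 called higher, 1 listed at 0 in all late libraries and 1 in all early libraries. The median log2 difference of this list was 1.32, 17 of the 23 were above 0, and 14 had every late value above every early one, beside 22.3% of all transcripts. The tapetum factor DYT1 (c20780_g1_i1), the 1 member with every late value below every early one, had 0.05, 0.13 and 0 FPKM in late siliques, against 2.2, 0.91 and 0.22 FPKM in early siliques. Green tissue markers (3 transcripts) summed to 43.2 to 84.6 FPKM in late and 56.8 to 94.6 FPKM in early siliques, with 0 called. Their part in the results was not tested.

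The same stages in the cold-treated libraries, which the calls did not use, were set beside them. The cold-treated libraries did take part in the study's split into early and late and in its choice of transcripts. By share of reads lost to quality filtering, the 6 h libraries divided by stage as the controls did. The 12 h libraries were all in the class with the larger loss. Of the 535 transcripts called higher in controls, 481 (89.9%) had every late value above every early one in the 6 h cold libraries and 457 (85.4%) in the 12 h cold libraries, where all transcripts had 18.7% and 20.5%. Of the 80 called lower, 54 (67.5%) and 42 (52.5%) had every late value below, against 12% and 11.6% of all. In limma fits of the cold libraries alone no transcript passed, and 2517 and 3168 did at an unadjusted p under 0.05. The difference between the late minus early effect of control and of cold siliques was called for 0 transcripts (limma, smallest adjusted p 0.964, with 645 at an unadjusted p under 0.05).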

How the data were processed

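Sample identities came from the submitters' labels, which give stage and duration of cold. Reads had passed the NGS QC Toolkit before all libraries were assembled with Trinity. Mapping was done with Bowtie2 and abundance came from RSEM. The authors deposited TMM-normalized FPKM of the transcripts that Trinity's differential expression scripts had called between some pair of libraries. The authors also deposited the assembly annotation, whose best hits name the transcripts (5036 of 13342 with an informative name). No genome was used, the table holds no read counts, and isoforms of a unigene or near-identical copies may share reads.

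The deposited FPKM were taken to log2(FPKM + 1) and late was compared with early in 6 control libraries with limma 3.58.1 in R 4.3.3, with Benjamini-Hochberg adjustment over all 13342 transcripts and no filter. The 1-fragment step came from low values of 707 transcripts of at least 500 and under 600 bp with 1 isoform in the table; 90.3% to 100% of values up to 6 fragments lay within 0.15 of a whole number. The 68 lists were built from best-hit words, domains or GO terms, and not all are described.

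The members and lists were chosen with earlier results of these data known, and several lists were refined after values were seen. Transcripts were named by rule: the smallest p and the largest difference among calls, 1 per unigene with all late values on one side, up to 6 per list by p, the most abundant, and classic seed genes. COBRA-like 4, both LAC4 transcripts, PAL4, dihydroflavonol 4-reductase, anthocyanidin synthase 1, TT10a, expansin-A22, gibberellin 20-oxidase 4, ent-kaurenoic acid oxidase 1, YUCCA10, both CYP78A transcripts, alpha-VPE, HDG3, trichome birefringence-like 33 and the group I LEA transcript were chosen after their values were seen. Alternatives were another pseudocount, a minimum mean, rescaling, sums per unigene, DAP as a line, read class, a variance trend, stage means with the cold libraries, and leaving out each library.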

Additional observations from a re-analysis of the deposited data

How the results depend on the processing

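The counts of calls moved most. As deposited, 535 transcripts were higher and 80 lower in late siliques. Rescaling by median ratios gave 328 higher, a variance prior that follows the mean 248 higher and 31 lower, DAP as a straight line 1398 higher and 627 lower, a minimum mean of 1 FPKM 122 lower, means over the control, 6 h and 12 h libraries of a stage 37 lower, and the read class as a term 0 higher and 0 lower. Leaving out 1 library gave 0 to 318 higher and 0 to 56 lower. The causes of these changes in the counts were not tested. Apart from 2 of the 615 under sums per unigene, every called transcript kept its direction under each alternative in which it had a value. Every call had all late values on one side of all early ones. Only rescaling, sums per unigene and means with the cold libraries could therefore have reversed a direction, and the other alternatives could not.

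List medians moved with the pseudocount of 0.1, to 3.46 for embryo and seed regulators, 3.23 for storage proteins, 3.04 for oil body proteins, 1.88 for lignin and secondary wall, -1.07 for MADS box factors and 1.57 for amino acid, peptide and nitrate transport. With the read class as a term they were 0.17 for storage proteins, 0.35 for oil body proteins, 1.06 for lignin and secondary wall and 0.53 for transport. A minimum mean of 1 FPKM gave 1.95 for embryo regulators and -0.36 for photosystem proteins, and sums per unigene 0.0267 for photosystem proteins. Leaving out 1 library gave 0.23 to 1.97 for storage proteins, the lowest without 30 DAP.

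With the read class as a term the log2 difference was -0.49 for c62438_g1_i2, -0.0599 for c66554_g1_i1 and -0.10 for c60381_g1_i3. Leaving out 1 library gave -0.29 (without 30 DAP) to 4.26 for c62438_g1_i2 and -2.48 to 0.12 (without 5 DAP) for c59625_g1_i1. None of these 4 transcripts was called. No paired analysis was possible because the replicate numbers only name the single library of each stage and pair no late stage with an early one. Depth limits values near 0, where 1 fragment is the smallest step.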

Other observations

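Further called transcripts were of mixed kinds. A galactosyltransferase (c38179_g1_i1) had 283, 397 and 715 FPKM in late siliques, against 0.66, 3.1 and 28.6 FPKM in early siliques (log2 difference 6.21 ± 1.11 SE, limma adjusted p = 0.0464). Its values were higher at each stage than at the one before. A transcript with the best hit YAP169 (c62227_g1_i1) had 23.7, 28.7 and 24.8 FPKM in late siliques, against 0.1, 0.06 and 1.49 FPKM in early siliques (log2 difference 4.22 ± 0.38 SE, limma adjusted p = 0.0194), and another of that name (c58487_g1_i1) had 33.8, 43.3 and 39.9 FPKM in late siliques, against 0.05, 0.11 and 2.18 FPKM in early siliques (log2 difference 4.68 ± 0.47 SE, limma adjusted p = 0.0219). Of 67 homeobox transcripts 4 were called higher and 0 lower, a share near that of all transcripts. HDG5 (c72085_g1_i8), an epidermal homeobox factor, had 4.21, 4.67 and 3.96 FPKM in late siliques, against 0.67, 0.47 and 0.54 FPKM in early siliques, level within each phase (log2 difference 1.76 ± 0.16 SE, limma adjusted p = 0.0194), and HDG3 (c71151_g5_i5) of that family had 3.87, 4.87 and 3.03 FPKM in late siliques, against 0, 0.16 and 0.95 FPKM in early siliques (log2 difference 1.89 ± 0.32 SE, limma adjusted p = 0.0417). Trichome birefringence-like 33 (c67725_g1_i2), which acetylates xylan in Arabidopsis, had 18.3, 16.2 and 12.1 FPKM in late siliques, against 2.91, 3.55 and 2.49 FPKM in early siliques (log2 difference 2.04 ± 0.22 SE, limma adjusted p = 0.0227). Chitinase-like 2 (c45281_g1_i1), which acts in cellulose assembly in Arabidopsis, was higher at lower levels (log2 difference 1.8 ± 0.22 SE, limma adjusted p = 0.0231). A plant invertase or pectin methylesterase inhibitor (c73509_g1_i1) had 53.8, 92.6 and 89.1 FPKM in late siliques, against 5.35, 6.19 and 9.02 FPKM in early siliques (log2 difference 3.33 ± 0.31 SE, limma adjusted p = 0.0194), and a cysteine proteinase (c59210_g1_i2) had 5.56, 10.2 and 8.47 FPKM in late siliques, against 0.15, 0.4 and 0.19 FPKM in early siliques (log2 difference 2.83 ± 0.25 SE, limma adjusted p = 0.0194). Late values of each transcript named in this paragraph were above all early values.

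Some transcripts often read in seeds were not called. A delta-12 desaturase (c15711_g1_i1), which makes linoleic acid, had 18.8, 13.8 and 50.7 FPKM in late siliques, against 19.5, 6.87 and 8.99 FPKM in early siliques, and its 5 DAP value lay above those of 20 and 25 DAP (log2 difference 1.08 ± 0.60 SE, limma adjusted p = 0.317). SWEET12 (c67475_g1_i1), a sucrose exporter, had 88.6, 112 and 206 FPKM in late siliques, against 58.4, 66.4 and 73.6 FPKM in early siliques, with no overlap and a log2 difference that did not pass (log2 difference 0.94 ± 0.35 SE, limma adjusted p = 0.17). Actin-7-like (c51347_g2_i1), of the class used as a reference in plant qPCR, had 8.72, 1.96 and 6.96 FPKM in late siliques, against 8.94, 14.2 and 7.24 FPKM in early siliques (log2 difference -0.82 ± 0.52 SE, limma adjusted p = 0.375). Its groups overlapped, and the lowest value was that of 25 DAP. The study used ACT7 as its qPCR reference because it found that gene's expression stable in its transcriptome. Whether this transcript is that gene was not tested. Actin-7-like was taken by name with the classic genes, and the other transcripts of this paragraph were chosen after their values were seen.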
